A study of Mus musculus with 12 samples.

Results

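MHC class I presentation displays peptides from a cell's own proteins at its surface, and 10 genes of this pathway were followed in splenic B lymphocytes. The genes were chosen by symbol: the heavy chains H2-K1 and H2-D1, the light chain B2m, the peptide transporter subunits Tap1 and Tap2, the loading factor Tapbp, the transactivator Nlrc5, and the immunoproteasome subunits Psmb8, Psmb9 and Psmb10. All 10 were listed among the 24982 gene symbols of each library, and all 10 passed the filter on low values in every comparison.

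Polyadenylated RNA came from B lymphocytes isolated from spleens of mice 6 weeks old, in 12 libraries. A set of 4 libraries came from WT (C57BL/J6) mice and 4 from Eμ-Myc transgenic mice, in which an immunoglobulin heavy-chain enhancer drives Myc in cells of the B lineage. The last 4 came from Eμ-Myc; PRPS2 KO mice, called the knockout group here, which carry the same transgene and lack PRPS2, an enzyme that makes phosphoribosyl pyrophosphate for nucleotide synthesis. How PRPS2 was deleted and how the B lymphocytes were isolated are not given in the sources used here. The labels call the libraries biological replicates and do not name the animals.

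Class I molecules consist of a heavy chain, the light chain β2-microglobulin and a peptide. The peptides come from proteins cut by the proteasome, enter the endoplasmic reticulum through the transporter TAP, and are loaded with the help of tapasin. In lymphocytes and under interferon the catalytic subunits of the constitutive proteasome are exchanged for Psmb8, Psmb9 and Psmb10, which change the peptides that are produced. NLRC5 does not bind DNA itself; it joins a complex of RFX, CREB or ATF, and NF-Y proteins at class I promoters and raises their transcription.

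Of the 10 genes, 7 lie on mouse chromosome 17 between positions 33915899 and 35267499 (GRCm38, GENCODE M21). Psmb9 (34181987 to 34187764, minus strand), Tap1 (34187553 to 34197225, plus strand), Psmb8 (34197721 to 34201454, plus strand) and Tap2 (34203527 to 34216321, plus strand) follow each other. H2-K1 (33996017 to 34000347, minus strand), Tapbp (33915899 to 33929292, plus strand) and H2-D1 (35262730 to 35267499, plus strand) lie on either side. B2m is on chromosome 2 (122147686 to 122153083, plus strand). Nlrc5 (94434356 to 94527272, plus strand) and Psmb10 (105935735 to 105938444, minus strand) are on chromosome 8.

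Promoter windows were shown because NLRC5 and its partners act there. The windows came from RefSeq (GRCm38.p6), reach from 250 bases before to 50 bases after a start site, and existed for 8 of the 10 genes. The motifs searched on both strands were TGACG, as in the sites of CREB and ATF proteins, ATTGG, the core of NF-Y sites, the NF-κB consensus, and TTTCNNTT, a core of IRF sites. The windows of B2m, H2-K1 and H2-D1 each held TGACG followed by ATTGG on the same strand with 20 bases between them. Capitals mark these elements in the stretches below, which lie at chr2:122147609-122147638, chr17:34000359-34000388 (minus strand) and chr17:35262993-35263022.
B2m: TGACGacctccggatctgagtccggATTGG
H2-K1: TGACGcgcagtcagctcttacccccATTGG
H2-D1: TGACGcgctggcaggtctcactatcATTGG

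The spacing was noticed by reading these windows and then counted elsewhere, so its presence in the 3 genes is a description. TGACGNNNNNNNNNNNNNNNNNNNNATTGG was found in 0.0944% of the 32851 RefSeq windows, in 27 of 27025 genes. TGACG alone was found in 20.8% of windows, ATTGG alone in 37.4%, the NF-κB consensus in 8.46% and TTTCNNTT in 23.9%. Of the 8 genes with a window, TTTCNNTT was found in B2m, H2-K1 and H2-D1. Of 17 other class I heavy chain and class I-like genes with a window, 1 held the spaced pair, H2-M3, with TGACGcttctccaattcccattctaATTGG at chr17:37270188-37270217.

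The whole windows of the light chain, 1 heavy chain and the transporter gene Tap1 are printed to show how the elements are placed. Capitals mark each match to the first 3 motifs on either strand, so a match on the other strand reads as its reverse complement. The windows are chr2:122147437-122147736 (plus strand), chr17:34000298-34000597 (minus strand) and chr17:34187306-34187605 (plus strand).
B2m: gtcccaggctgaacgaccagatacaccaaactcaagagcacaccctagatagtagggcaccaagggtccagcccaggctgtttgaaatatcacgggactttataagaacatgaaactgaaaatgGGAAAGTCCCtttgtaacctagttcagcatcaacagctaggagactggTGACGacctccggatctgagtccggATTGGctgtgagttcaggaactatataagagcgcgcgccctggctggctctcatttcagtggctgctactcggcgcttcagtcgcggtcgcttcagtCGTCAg
H2-K1: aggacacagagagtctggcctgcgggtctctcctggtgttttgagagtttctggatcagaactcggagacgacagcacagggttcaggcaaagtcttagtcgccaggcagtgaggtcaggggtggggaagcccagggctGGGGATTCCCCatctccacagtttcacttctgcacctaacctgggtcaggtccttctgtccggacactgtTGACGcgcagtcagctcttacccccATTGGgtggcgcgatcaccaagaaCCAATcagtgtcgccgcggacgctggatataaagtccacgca
Tap1: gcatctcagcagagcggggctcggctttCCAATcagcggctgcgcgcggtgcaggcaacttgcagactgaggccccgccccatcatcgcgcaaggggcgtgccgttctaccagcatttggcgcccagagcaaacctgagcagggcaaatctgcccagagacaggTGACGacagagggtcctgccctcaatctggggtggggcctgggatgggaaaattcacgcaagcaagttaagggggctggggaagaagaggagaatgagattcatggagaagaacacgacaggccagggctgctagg

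Tap1 and Psmb9 are transcribed away from a shared stretch: their RefSeq start sites lie 226 bases apart, and their windows share 275 bases. The Tap1 window held 1 TGACG and 1 ATTGG, without the spacing above. The windows of Psmb8 and Psmb10 held none of these motifs, which says only that these letters are not in those windows. The RefSeq start site of Tapbp lies 3579 bases from the first base of its GENCODE gene and that of Psmb8 474 bases, so a window may not hold every start used in B cells.

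The deposited values were taken as mean coverages per gene, the average number of reads over a base of the gene, and the sum per library ran from 1277305.5 to 1885768.9. Values below are coverages divided by 1 factor per library, called scaled coverage, and each group has 4 libraries. The targeted gene, Prps2, followed the labels: it averaged 17.1 ± 0.857 in the knockout group, 246 ± 36.5 in Eμ-Myc and 125 ± 19.8 in WT (SD, n = 4). Defining B-cell markers were present in every library: each of 8 genes, Cd79a among them, had a scaled coverage of at least 1 in all 12. Knockout libraries 1 and 2 stood apart from 3 and 4. The summed T-cell list (11 genes measured) was 915 and 1040 in the first and 82.0 and 81.5 in the others, against 189 to 256 in Eμ-Myc and 778 to 4231 in WT. The summed NK list (10 genes) was 729 and 556, then 31.1 and 28.6, against 121 to 301 in Eμ-Myc and 447 to 1801 in WT. No gene of either list was at 0 in all libraries. The summed myeloid list (14 genes) was 16250 and 12190, then 3141 and 1393. It overlapped between WT (8611 to 26280) and Eμ-Myc (6054 to 17800). These sums move with some results below, and their part in them was not tested.

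Eμ-Myc was set against WT to see what the Myc transgene changes in B cells. In limma, 7 of the 10 genes fell and 3 did not pass, with none called higher. The 7 were the heavy chains, the light chain, the transporter subunits, Tapbp and Nlrc5, and the 3 were the immunoproteasome subunits. Over all 12723 genes tested 55.1% were called, 24.7% lower and 30.4% higher. The balance depended on the scaling: 3873 of 7016 called genes were higher here, and 3057 of 7284 with scaling by total coverage, where 9 of the 10 were called, all lower. The median log2 fold change of the 10 genes was -0.77, beside -0.01 over all genes tested. In all 7 the Eμ-Myc libraries lay below the WT libraries without overlap, which held for 22.8% of all genes in that direction. A lower value in these bulk samples cannot tell fewer expressing cells from less RNA per cell.

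**Figure D1:**
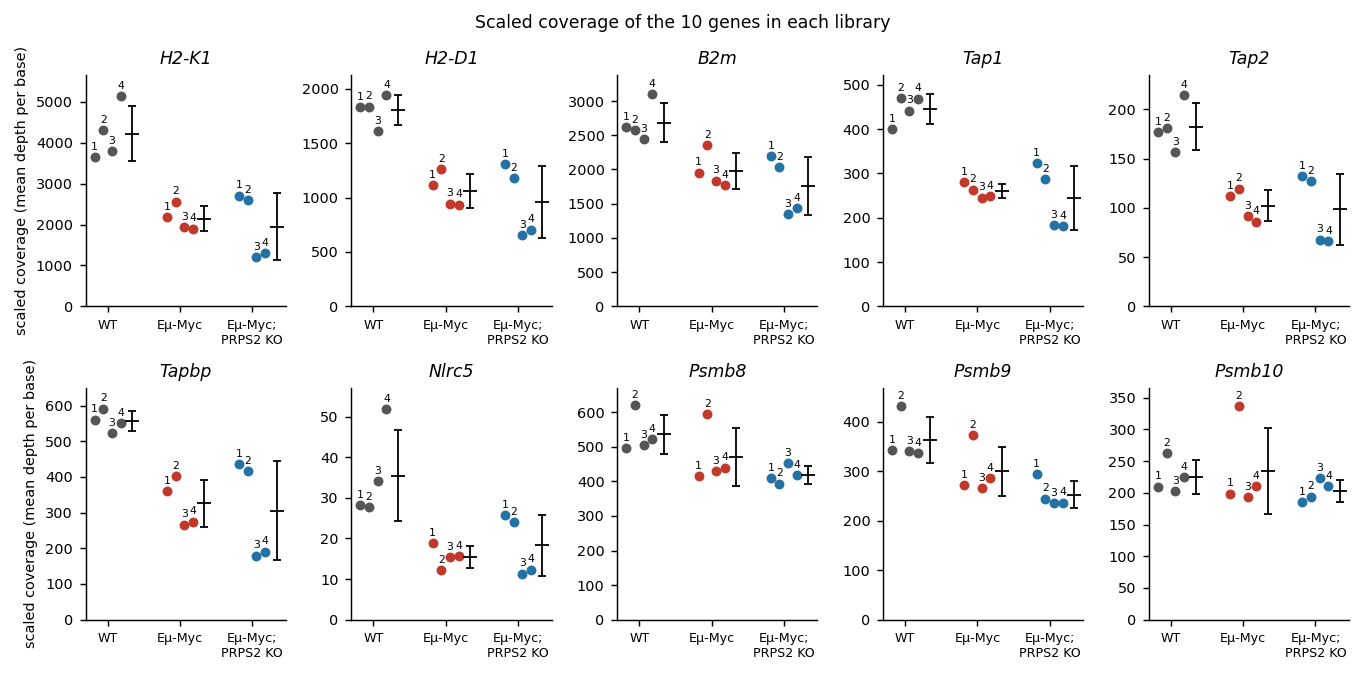
Scaled coverage (y axes, mean read depth per base, linear from 0) of each gene in the 4 libraries of WT, Eμ-Myc and Eμ-Myc; PRPS2 KO; numbers are replicate numbers and bars show mean ± SD. In H2-K1, H2-D1, B2m, Tap1, Tap2, Tapbp and Nlrc5 both groups with the transgene lie below WT, while the ranges of Psmb8, Psmb9 and Psmb10 overlap between WT and Eμ-Myc.

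The heavy chain H2-K1, which binds the peptide, had the highest level of the 10 genes in WT. Its scaled coverage was 3653, 4307, 3803 and 5149 in WT libraries 1 to 4 and 2187, 2562, 1934 and 1903 in Eμ-Myc libraries 1 to 4. The lowest WT library was above the highest Eμ-Myc library, and H2-K1 fell with a log2 fold change of -0.98 (SE 0.14, adjusted p 0.000367 in limma). H2-D1, the other heavy chain of the 10, held 1829, 1837, 1613 and 1945 in WT and 1112, 1263, 944 and 935 in Eμ-Myc. It fell with a log2 fold change of -0.77 (SE 0.12, adjusted p 0.000597 in limma). Class I heavy chains are close copies of each other, and how the authors treated shared reads is not stated, so these levels are uncertain. The entry H2-L, for example, held 1.07 to 1.14 times the coverage of H2-D1 in every library.

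B2m, the light chain shared by all class I molecules, fell less in size: 2616, 2578, 2445 and 3107 in WT against 1955, 2354, 1838 and 1767 in Eμ-Myc. Its log2 fold change was -0.44 (SE 0.12, adjusted p 0.0118 in limma), and with all 12 libraries in one fit the adjusted p was 0.0523. Taking coverage as depth per base, the chains were set against each other, with the heavy chain levels uncertain as said above. B2m over the sum of H2-K1 and H2-D1 was 0.477, 0.420, 0.451 and 0.438 in WT and 0.593, 0.615, 0.639 and 0.623 in Eμ-Myc. The light chain was thus higher relative to the heavy chains in each Eμ-Myc library than in any WT library; this ratio was chosen after the values were seen and was not tested.

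The peptide transporter and its loading factor fell by similar amounts. Tap1, a subunit of the transporter, held 400, 471, 442 and 469 in WT and 281, 264, 246 and 249 in Eμ-Myc, a log2 fold change of -0.78 (SE 0.09, adjusted p 0.000131 in limma). Tap2, its partner subunit, held 177, 181, 157 and 214 in WT and 112, 120, 91.7 and 86.1 in Eμ-Myc, a log2 fold change of -0.83 (SE 0.14, adjusted p 0.000812). Tapbp encodes tapasin, which holds empty class I molecules beside the transporter. It held 561, 592, 523 and 550 in WT and 360, 403, 266 and 275 in Eμ-Myc, a log2 fold change of -0.79 (SE 0.14, adjusted p 0.0013 in limma). Exons of other genes overlap these: 24.9% of the annotated exon bases of Tapbp lie opposite Gm19412 and 14.1% of those of Tap2 opposite Gm15821. Among the proteasome subunits below, Psmb8 has 14.7% opposite Gm20496 and Psmb7 11.8% opposite Nek6. Psmb5 shares 12.1% with Mir686 on the same strand, and Tap1 and Psmb9 share 212 exon bases on opposite strands. The libraries were directional, but whether the counting used strand is not stated.

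Nlrc5 had the lowest level of the 10 and the lowest log2 fold change of the 10. It held 28.3, 27.7, 34.1 and 51.8 in WT libraries 1 to 4 and 18.8, 12.2, 15.4 and 15.7 in Eμ-Myc libraries 1 to 4. Its log2 fold change was -1.13 with SE 0.21 (adjusted p 0.00175 in limma). In WT, library 4 held the highest summed T-cell and NK lists and was also the highest in Nlrc5. Without it the log2 fold change was -0.94 (adjusted p 0.00185 in limma). The other WT libraries also had higher sums of both lists than any Eμ-Myc library, and the part of these sums was not tested.

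The profile of Nlrc5 over the 12 libraries was compared with those of 12361 genes, as the root-mean-square difference of log2 values centred on each gene's mean. The nearest were Eml5 (0.08), Aak1 (0.14), Micall1 (0.14), Plekhg2 (0.14) and Chd3 (0.15). Tap2 ranked 274, Tap1 277 and H2-K1 280, each at 0.29, and Psmb10 ranked 5737 at 0.72. The profile nearest to B2m was that of Rac2 (0.09), a small GTPase of blood cells, followed by Adck2 (0.09), Tmsb4x (0.09), Arrdc1 (0.09) and Rnf114 (0.10). None of the other 9 genes was among the 5 nearest to Nlrc5 or to B2m.

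The immunoproteasome subunits did not pass the test. Psmb8, whose active site cuts after hydrophobic residues, held 497, 621, 504 and 521 in WT and 414, 594, 430 and 440 in Eμ-Myc, a log2 fold change of -0.20 (SE 0.14, adjusted p 0.233 in limma). Psmb9 held 343, 431, 340 and 336 in WT and 271, 373, 266 and 287 in Eμ-Myc, a log2 fold change of -0.28 (SE 0.14, adjusted p 0.106). Psmb10 held 210, 263, 202 and 225 in WT and 199, 336, 194 and 210 in Eμ-Myc, a log2 fold change of 0.03 (SE 0.18, adjusted p 0.898). Eμ-Myc library 2 was the highest of its group in all 3 subunits, and WT library 2 the highest of WT. Without Eμ-Myc library 2, Psmb8 (-0.32, adjusted p 0.0290 in limma) and Psmb9 (-0.39, adjusted p 0.0177) passed as lower. Their calls also depended on the scaling: by total coverage, which put the median of all genes at -0.19, Psmb8 was -0.38 (adjusted p 0.0174) and Psmb9 -0.46 (adjusted p 0.00823). With median-of-ratios scaling Psmb9 was -0.34 (adjusted p 0.0487 in limma). Library quality weights gave -0.32 for Psmb8 (adjusted p 0.0141) and -0.43 for Psmb9 (adjusted p 0.00441). The value of Psmb10 turned to -0.15 under total coverage scaling.

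**Figure D2:**
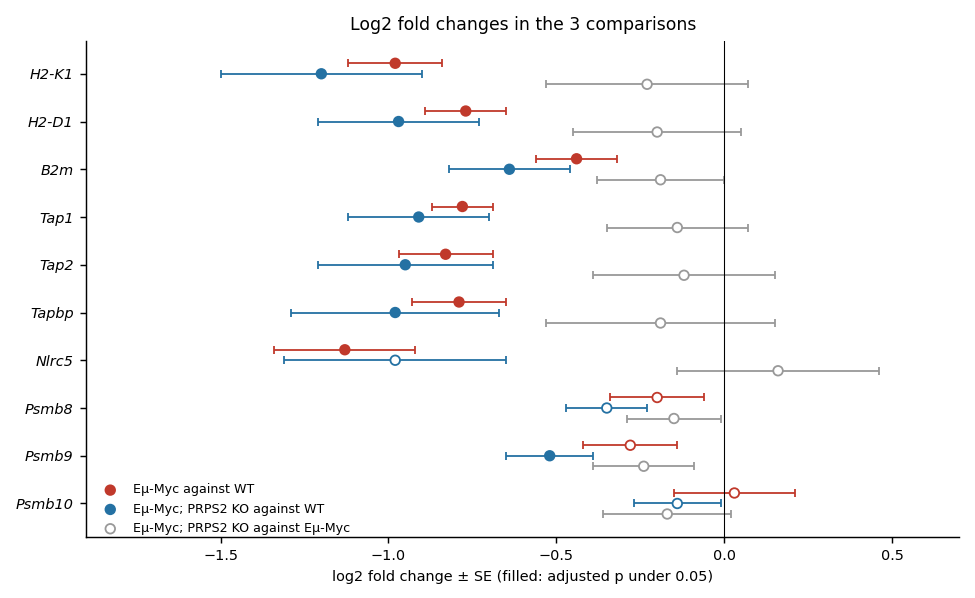
Log2 fold change ± SE (x axis) of each gene (y axis) in Eμ-Myc against WT, the knockout group against WT and the knockout group against Eμ-Myc; filled points have a limma adjusted p under 0.05. The first comparison has 7 filled points from -1.13 to -0.44, the knockout group against Eμ-Myc has none, and the comparisons share libraries.

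The constitutive subunits that Psmb8, Psmb9 and Psmb10 replace rose in Eμ-Myc. Psmb5, the counterpart of Psmb8, rose by 0.86 on the log2 scale (SE 0.13, adjusted p 0.000515 in limma), Psmb6, that of Psmb9, 0.85, and Psmb7, that of Psmb10, 1.09. The log2 ratio of the immunoproteasome to the constitutive subunit within a library does not depend on the library scaling, apart from a pseudocount of 0.5. Psmb8 over Psmb5 was 1.82, 1.99, 1.96 and 2.05 in WT and 1.04, 1.05, 0.82 and 0.68 in Eμ-Myc. Every Eμ-Myc library was lower than every WT library, with a mean difference of -1.06 (SE 0.10). Psmb9 over Psmb6 averaged 1.05 ± 0.05 in WT and -0.08 ± 0.14 in Eμ-Myc, a difference of -1.14 (SE 0.07). Psmb10 over Psmb7 averaged 0.11 ± 0.12 (SD, n = 4) in WT and -0.95 ± 0.30 in Eμ-Myc, a difference of -1.06 (SE 0.16). The groups did not overlap in any of the 3 ratios. Each exact two-sided permutation p was 0.0286, the smallest that 4 libraries against 4 allow, or 0.0429 after Benjamini-Hochberg adjustment over 9 tests. The immunoproteasome transcript was therefore lower relative to its counterpart by a factor of 2.08, 2.2 and 2.08 in the order above. The constitutive subunits rose here, while Psmb8, Psmb9 and Psmb10 did not pass on their own. How many other gene pairs would separate the groups in this way is not given here.

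**Figure D3:**
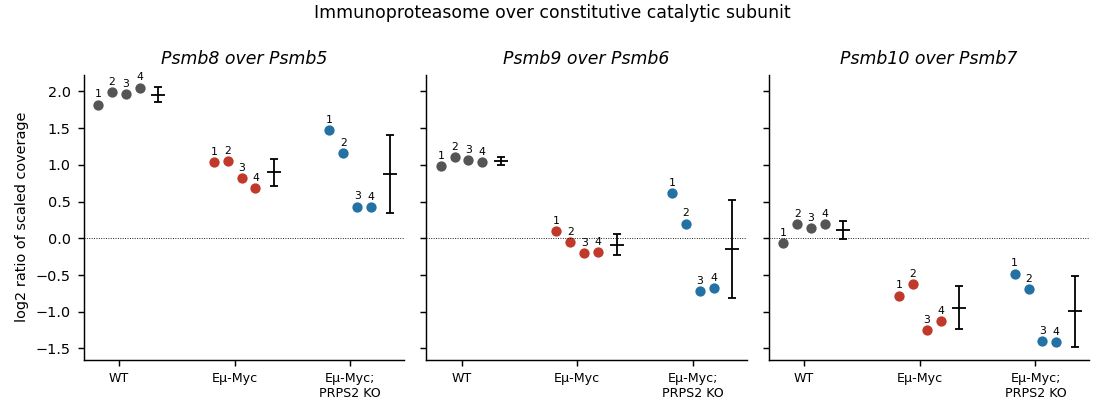
Log2 ratio of scaled coverage (y axis) of Psmb8 to Psmb5, Psmb9 to Psmb6 and Psmb10 to Psmb7 in each library (points, with replicate numbers) by group, with mean ± SD. The WT libraries lie above all libraries of both other groups, and knockout libraries 3 and 4 are the lowest of each panel.

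Other genes of the pathway were taken from lists and read against the shares of all genes given above. Of 25 further heavy chain and class I-like genes 18 were tested, 14 were lower and none higher, with a median log2 fold change of -1.10. Among them were H2-Q5 with -2.21 (SE 0.16, adjusted p 6.51e-06 in limma), H2-Q6 with -2.28, H2-M3 with -1.15 and H2-T10 with -1.44. H2-L (-0.78), also among the 14, followed H2-D1 in every library and may not be a separate measure. In WT H2-Q6 averaged 248 ± 23.1, against 51.7 ± 14.5 (SD, n = 4) in Eμ-Myc. The loading and trimming list went the other way in count, with 6 of 10 higher and 1 lower. The chaperone Canx, which folds new heavy chains, rose by 0.94 (SE 0.11), and Pdia3, a partner of tapasin, by 0.49, while Tapbpl, a relative of tapasin that edits peptides, fell by 0.94. Of the proteasome core, activator and assembly list 21 of 23 genes rose, with a median of 0.93. Lowest in adjusted p were the assembly chaperones Psmg1 (1.47) and Psmg2 (1.16), the nuclear activator Psme3 (1.02) and the core subunit Psma5 (1.14). The interferon-induced activator subunits Psme1 and Psme2 did not pass: Psme1 averaged 582 ± 47.7 in WT against 637 ± 115 in Eμ-Myc, and Psme2 745 ± 70.8 against 797 ± 154 (SD, n = 4). They were named after their values were seen.

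Among 21 transcription and chromatin regulators of class I genes 12 were lower and 7 higher. Ezh2, a histone methyltransferase of the Polycomb complex, rose by 2.25 (SE 0.10, adjusted p 1.52e-06 in limma). Stat3 (-1.26), Irf9 (-1.01), a factor of the interferon response, and the NF-κB subunit gene Nfkb1 (-0.80) fell. Of 11 interferon receptor and signalling genes 10 fell, among them the receptor Ifnar1 (-1.11) and the kinases Jak1 (-1.31) and Tyk2 (-0.74). Of 24 interferon-stimulated genes 21 fell and none rose, with a median of -1.17. They included the guanylate-binding protein gene Gbp4 (-2.23) and Ifit1 (-1.99). Ciita, the class II counterpart of Nlrc5, was also called, at -1.06 with SE 0.28 (adjusted p 0.0106 in limma), but its WT and Eμ-Myc libraries overlapped.

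**Figure D4:**
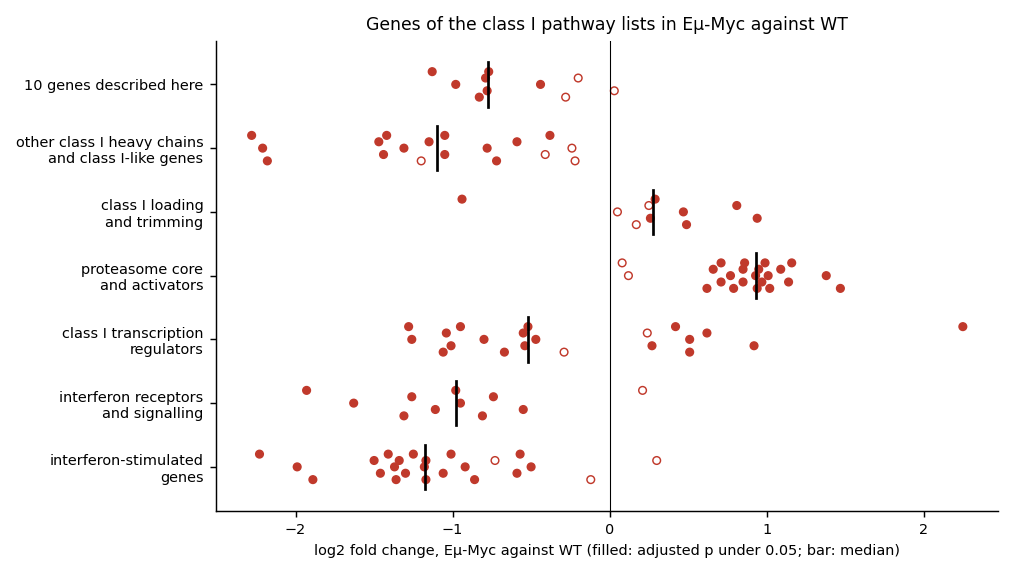
Log2 fold change in Eμ-Myc against WT (x axis) of each tested gene (points) of 7 lists (y axis); filled points have a limma adjusted p under 0.05 and bars mark medians. The 10 genes and the further heavy chains lie mostly below 0 with medians of -0.77 and -1.10, and the proteasome list lies above 0 with a median of 0.93.

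In the same comparison all 11 tested genes of the T-cell list and all 10 of the NK list fell, with medians of -2.99 and -2.11. The mature B-cell list fell in 7 of 7 genes (median -1.73, among them Fcer2a with -2.58), and 6 of 9 genes of the immature B-cell list rose, among them Rag2 with 3.53, while 1, Il7r, fell with -2.39. Of the dendritic-cell list 3 of 7 genes fell, Siglech, Itgax and Flt3, and of the B-cell list Cd22 fell with -0.94. The part of these shifts in the lower class I values was not tested. Among the WT libraries, library 4 had the highest summed T-cell and NK lists (4231 and 1801) and the highest H2-K1, H2-D1, B2m, Tap2 and Nlrc5. Library 2 had the lowest of both sums (778 and 447), the lowest Nlrc5 and the highest Tap1 and Tapbp.

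The knockout group was set against Eμ-Myc to see whether loss of PRPS2 touches what Myc changes. In limma 0 of the 10 genes were called, 0 had an unadjusted p under 0.05, and 0 were called in any fit that left out 1 library. Over all 12551 genes tested 0.00797% were called, which is Prps2 alone, and 0.964% passed 0.05 before adjustment. The 10 had a median log2 fold change of -0.18, beside -0.03 over all genes. The libraries of both groups overlapped in all 10 genes, where 1.52% of all genes did not overlap. With limma's library quality weights 8 of the 10 were called lower and 7460 of all genes were called. Knockout libraries 1 to 4 had weights of 0.0817, 0.129, 3.2 and 7.76 there, and the fit rested mainly on libraries 3 and 4.

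The 4 knockout libraries differed among themselves more than those of the other groups in the presentation genes. H2-K1 held 2710, 2595, 1198 and 1303 in knockout libraries 1 to 4. Libraries 1 and 2 were above all Eμ-Myc libraries and 3 and 4 below all of them, and the log2 fold change was -0.23 (95% interval -0.91 to 0.45, adjusted p 1.00 in limma). H2-D1 held 1310, 1181, 657 and 705, a log2 fold change of -0.20 (95% interval -0.77 to 0.38). B2m held 2201, 2040, 1350 and 1437, a log2 fold change of -0.19 (95% interval -0.63 to 0.24). B2m over the heavy chains was 0.547, 0.540, 0.728 and 0.715, so the libraries low in heavy chains had the highest such ratio of all 12.

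The other presentation genes were also higher in libraries 1 and 2 than in 3 and 4. Tap1 held 323, 288, 184 and 182, Tap2 132, 127, 67.8 and 66.2, and Tapbp 436, 417, 179 and 191. Their log2 fold changes against Eμ-Myc were -0.14, -0.12 and -0.19, with 95% intervals from -0.62 to 0.35, -0.73 to 0.50 and -0.96 to 0.58. Nlrc5 held 25.7, 23.95, 11.3 and 12.3, a log2 fold change of 0.16 (95% interval -0.53 to 0.84). Knockout libraries 1 and 2 were thus above every Eμ-Myc library in Tap1, Tap2, Tapbp and Nlrc5 as well, and libraries 3 and 4 below every one in Tap1, Tap2 and Tapbp. Library 3 was also below every Eμ-Myc library in Nlrc5, and library 4, at 12.3, lay just above Eμ-Myc library 2 at 12.2.

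The immunoproteasome subunits differed less between these libraries. Psmb8 held 409, 394, 453 and 417 in the knockout libraries, Psmb9 293, 245, 235 and 236, and Psmb10 185, 194, 224 and 210. Psmb9 was higher in libraries 1 and 2 than in 3 and 4, as in the presentation genes, and Psmb8 and Psmb10 were lower in libraries 1 and 2. The coefficient of variation over the knockout libraries was 6.03% for Psmb8, 11% for Psmb9 and 8.44% for Psmb10. It was 41.6% for H2-K1, 45.6% for Tapbp, 41.2% for Nlrc5 and 24.3% for B2m, the lowest of the 7 presentation genes. The log2 fold changes against Eμ-Myc were -0.15, -0.24 and -0.17, with 95% intervals from -0.48 to 0.18, -0.58 to 0.10 and -0.61 to 0.27. The constitutive subunits were also lower in libraries 1 and 2: Psmb5 held 147, 176, 335 and 312, and Psmb7 258, 313, 590 and 558.

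The ratio of the subunits separated the knockout libraries too. Psmb8 over Psmb5 was 1.47, 1.16, 0.43 and 0.42 on the log2 scale, and Psmb9 over Psmb6 0.62, 0.20, -0.72 and -0.68. Libraries 3 and 4 were below all Eμ-Myc libraries in both. The mean differences from Eμ-Myc were -0.03 (SE 0.28, exact permutation p 1.0000) and -0.06 (SE 0.34, exact permutation p 0.8857), and -0.05 (SE 0.28, p 0.80) for Psmb10 over Psmb7.

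**Figure D5:**
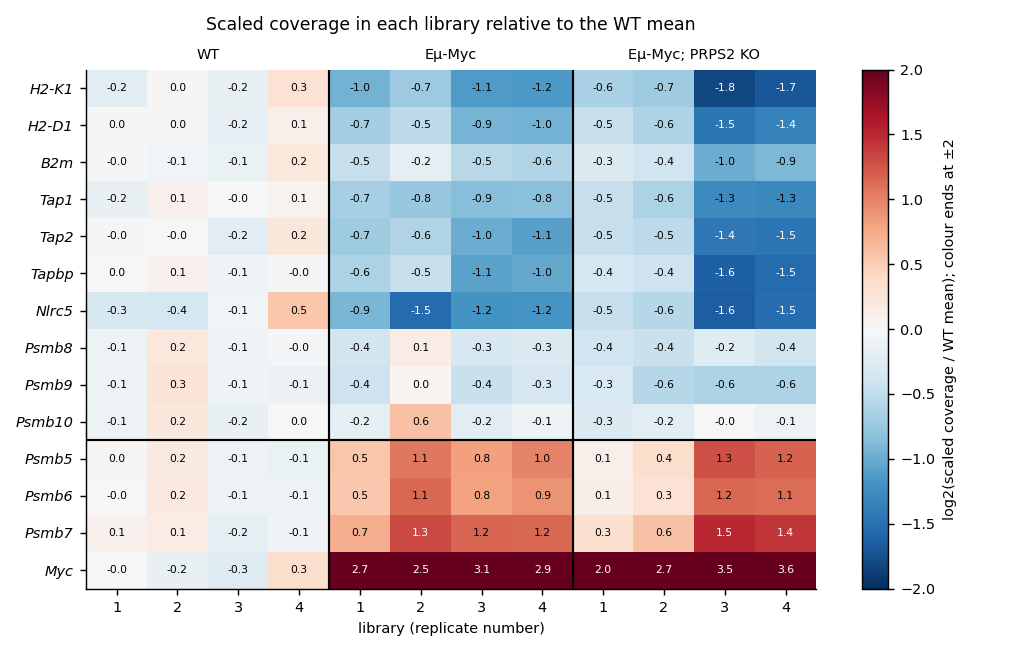
Scaled coverage of the 10 genes, the constitutive subunits and Myc (rows) in each library (columns) as the log2 ratio to the WT mean, in colour and printed in each cell; the colour ends at 2 in both directions. In knockout libraries 3 and 4 the rows from H2-K1 to Tapbp are bluer than in all other libraries, and the rows of Psmb5 and Psmb7 redder. The rows of Psmb8 to Psmb10 stay pale. The Myc row is past the end of the colour in every Eμ-Myc and knockout library, so only its printed values differ there.

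Several other measures moved with this split. Myc held 1099, 1718, 3017 and 3282 in knockout libraries 1 to 4, against 1559 to 2302 in Eμ-Myc. Ezh2 held 212, 294, 519 and 540, and the interferon-pathway factor Irf1 held 246, 220, 54.95 and 58.35. The summed mature B-cell list was 4231, 3744, 1288 and 1341. T-cell, NK and myeloid sums were lower in libraries 3 and 4, as given above. The part of any of these in the class I values was not tested. Irf1 was named here after its values were seen.

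Set against WT, the knockout group showed 7 of the 10 genes lower and none higher in limma, where 29.3% of all 12692 genes were called, 9.60% lower and 19.7% higher. The median log2 fold change of the 10 was -0.93, beside -0.01 over all genes. The comparison shares its WT libraries with the first one and its knockout libraries with the second. The 7 were H2-K1 with -1.20 (SE 0.30, adjusted p 0.0277 in limma), H2-D1 with -0.97 (adjusted p 0.0274), Tap1 with -0.91 (adjusted p 0.0243), Tap2 with -0.95 (adjusted p 0.0357), Tapbp with -0.98 (adjusted p 0.0477), B2m with -0.64 (adjusted p 0.0383) and Psmb9 with -0.52 (adjusted p 0.0302). Nlrc5 with -0.98 (SE 0.33, adjusted p 0.0545) and Psmb8 with -0.35 (SE 0.12, adjusted p 0.0519) just missed the threshold, and Psmb10 with -0.14 (adjusted p 0.372) did not pass. Nlrc5 and Psmb8 were each called lower in 4 of 9 alternative fits that kept all libraries. In all but Psmb10 every knockout library was below every WT library, which held for 14.8% of all genes in that direction. In this comparison the mature B-cell list had a median of -2.32 (3 of 7 lower) and the immature B-cell list one of 1.35 (5 of 8 higher). The T-cell and NK lists had medians of -3.19 and -2.47 with 0 of 11 and 0 of 10 called in limma, and 8 and 3 genes at an unadjusted p under 0.05. Their part in the class I values was not tested.

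These calls rested on single libraries. The count was 0 of 10 without any 1 of the WT libraries, without knockout library 3 or without knockout library 4, and 8 without knockout library 1 or 2. Without the filter on low values the adjusted p of Tapbp in limma was 0.0589. No sign changed in the fits that left out 1 library: H2-K1 ran from -1.39 to -1.0 and Tap1 from -1.06 to -0.79. All genes called fell from 3716 to as few as 614 in the same fits, without WT library 3.

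Psmb8 over Psmb5, Psmb9 over Psmb6 and Psmb10 over Psmb7 were lower in every knockout library than in every WT library. The share of other gene pairs that separate so is again not given. The mean differences were -1.08 (SE 0.27), -1.20 (SE 0.33) and -1.11 (SE 0.25), each with an exact permutation p of 0.0286 and an adjusted p of 0.0429. Of the further heavy chain and class I-like genes 11 of 18 were lower against WT, among them H2-T10 (-1.61) and the close copies H2-T9 and H2-T22 (both -1.21), whose shared reads make them uncertain. H2-L (-0.98), also among the 11, may likewise not be separate from H2-D1. Of the interferon-stimulated genes 8 of 24 were lower, among them Ifit2 (-1.37) and Igtp (-1.67). Of the interferon receptor and signalling genes 3 of 11 were lower, and of the regulator list 6 were lower and 3 higher. Of the proteasome list 9 of 23 were higher, among them the activator Psme4 (0.66), and of the loading list 3 were higher and 1 lower. None of these lists had a gene called between the knockout group and Eμ-Myc; at an unadjusted p under 0.05 each had 0.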

How the data were processed

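Each library's file, as deposited by the authors, gave 1 coverage signal per gene symbol, taken as mean read depth per base. Over genes its rank correlation with exon length was -0.01. The submitters' processing notes name the build mm10, DESeq and R 4.3.3. The aligner, counting step and annotation are not given in the sources used here, and without read counts the depth is unknown and counting error cannot be stated. Coverage was divided by 1 factor per library, its total coverage corrected by a trimmed mean of log ratios. At each end 30% of ratios and 5% of means were trimmed. Genes reaching a scaled coverage of 1 in 4 or more of the 8 libraries of a comparison went into limma 3.58.1 (R 4.3.3) on log2(scaled coverage + 0.5), trended and robust, two-sided. A call needed p under 0.05 after Benjamini-Hochberg adjustment across all genes tested. Fold changes are on that log2 scale. P-values set a group difference against the spread between these libraries, in limma with variances moderated across genes. The procedure was tested on simulated data with independent genes and equal spread in both groups, which lack the split among the knockout libraries.

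The 10 genes and all lists were chosen with earlier results of these data known. Beside the 10, the text names Prps2, Myc, the constitutive subunits, Ciita, up to 4 called genes with the smallest adjusted p per list, and the 5 profiles nearest to Nlrc5 and to B2m. H2-L, Psme1, Psme2, Irf1 and the cell-type markers were named after their values were seen. Genes with overlapping exons were named for that overlap. All tests reported are unpaired. Between knockout and Eμ-Myc libraries, deviations from the group mean correlated between libraries of 1 number, with r of 0.657, 0.192, 0.253 and 0.607. Knockout libraries 1 and 4 correlated best with the Eμ-Myc library of their own number, but 2 with library 1 and 3 with library 4. Whether libraries are paired cannot be told from these values, and a fit with the number as a block was an alternative. Alternatives covered scaling, pseudocount, filter, a shared fit, a replicate block, quality weights and leaving out libraries. Figures used Python 3.11.15 and matplotlib 3.10.9.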

Additional observations from a re-analysis of the deposited data

Results flagged for a closer look

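Of 54 groups of 4 values tested, 4 held a library far from the rest of its group by Dixon's criterion; chance gives about 1 in 20. Psmb9 in WT was highest in library 2, at 431.2. Psmb8 and Psmb10 in Eμ-Myc were both highest in library 2, at 594.4 and 336.3. Psmb9 in the knockout group was highest in library 1, at 293.3. All 4 were immunoproteasome subunits, and the cause was not tested.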

How the results depend on the processing

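With the replicate number as a block, 8 of the 10 genes were called in Eμ-Myc against WT in place of 7, with Psmb9 added (-0.28, adjusted p 0.0283 in limma), and 7184 of all genes in place of 7016. It gave 0 in the knockout group against Eμ-Myc as before. In the knockout group against WT the block gave 1 of 10 in place of 7, and 1863 of all genes in place of 3716. In both comparisons with WT the labels do not say whether libraries of 1 number belong together. There r was 0.230, -0.0972, 0.264 and 0.135 for Eμ-Myc, and ran from -0.423 to 0.398 for the knockout group. Library quality weights gave 8 of 10 and 7460 of all genes in the knockout group against Eμ-Myc, in place of 0 and 1, and 10505 of all genes against WT. All 12 libraries in one fit gave 5975 of all genes in the knockout group against WT. In Eμ-Myc against WT that fit gave 6 of the 10 genes in place of 7, without B2m, and 5460 of all genes in place of 7016. Leaving out 1 library gave 0 to 8 of the 10 and 614 to 6820 of all genes in the knockout group against WT. It gave 7 to 9 of the 10 and 5955 to 7052 of all genes in Eμ-Myc against WT. Scaling by total coverage gave 3057 higher of 7284 called in Eμ-Myc against WT, where the main values were 3873 of 7016.

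Signs that turned were those of values that had not passed in the main fit. Psmb10 in Eμ-Myc against WT was -0.03 with median-of-ratios scaling, -0.15 with total coverage, -0.15 with quality weights, and from -0.16 to 0.11 when 1 library was left out. In the knockout group against Eμ-Myc, quality weights gave -0.36 for Nlrc5 and 0.08 for Psmb10. That value of Nlrc5 passed as lower (adjusted p 0.0188 in limma), where its main value was 0.16. Leaving out 1 library there gave -0.03 to 0.35 for Nlrc5, -0.25 to 0.01 for Psmb10, -0.29 to 0.04 for Tap2 and -0.40 to 0.02 for Tapbp. The causes were not tested. The read depth is unknown, so its limit on each gene cannot be stated.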
